A study of Mus musculus with 6 samples.

Results

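The DNA replication machinery described here is a set of 41 genes, chosen by name as rows of the deposited count table of 24047 rows. This set and the further lists below were chosen with earlier results of these data known. The set holds genes of the MCM helicase, the origin recognition complex, the licensing and helicase-activating factors, primase and the replicative polymerases. It also holds genes of the sliding clamp and its loader, the single-strand binding protein and the enzymes that join Okazaki fragments. Not every subunit is included: Orc4, Pold4, Pole3 and Pole4 are outside the set and stand among the further subunits below. All 41 genes had a row, and all 41 passed the filter on low counts, with 46 to 4131 reads per gene and library.

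RNA was sequenced from 6 libraries of mouse naive CD4+ CD62L+ T cells of the spleen, 3 from wild-type (WT) mice and 3 from conditional knockouts of Srsf1, which encodes a splicing factor (Srsf1-cKO, genotype Srsf1-flox/flox dLck.Cre). All mice were 7 weeks old and of the B6.129 strain, and the design text gives 3 mice per genotype. The dLck.Cre transgene places Cre under the distal Lck promoter, which is active in T cells. The sources used here do not say whether the WT mice carried the floxed allele or Cre. Cells of both genotypes were activated with anti-CD3 at 0.5 µg/mL and anti-CD28 at 1 µg/mL for 72 h. They were then restimulated with PMA at 100 ng/mL and ionomycin at 1 µM for 4 h, so no library holds resting cells.

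Replication begins when the origin recognition complex, CDC6 and CDT1 load MCM helicases onto DNA in G1. The kinase CDC7 with DBF4, then CDC45 and the GINS complex, turn the loaded helicase into an active fork, where polymerase alpha with primase lays down primers and polymerases delta and epsilon extend them on the PCNA clamp. Most of these genes are transcribed late in G1 by E2F factors, and T cells raise them strongly once activated.

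The libraries held 7781283 to 10184268 reads counted in genes, and 77.96% to 80.93% of reads mapped to 1 place. Srsf1 mRNA did not mark the genotypes: its level was 495 ± 42.1 CPM (counts scaled by library size) in WT and 514 ± 39.1 in Srsf1-cKO (SD, n = 3 each), with a log2 fold change of 0.06 ± 0.12 (SE) and an edgeR adjusted p of 0.78. A count over the whole gene does not show which exons were present, so the groups are named below as their libraries were labelled. Markers of other cells differed too, and their values stand after the replication genes.

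Replication genes were on the whole higher in the libraries labelled Srsf1-cKO. Of the 41 genes, 8 rose: Mcm2, Mcm3 and Mcm6 of the helicase, Orc1 and Orc2 of the origin recognition complex, Pola1 and Pold2 of the polymerases, and Rpa3 of the single-strand binding protein. Genes are said to have risen or fallen where the adjusted p of edgeR's quasi-likelihood test over all 10454 tested genes was under 0.05. The share that rose was 19.5% of the 41, against 8.9% of all tested genes. None of the 41 fell (0 at an unadjusted p under 0.05, and 0 with DESeq2 and with limma-voom), against 9.5% of all tested genes. The unadjusted p was under 0.05 with a higher level in Srsf1-cKO for 19 of the 41, against 17.2% of all.

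Log2 fold changes (Srsf1-cKO over WT) ran from -0.34 for Cdt1 to 1.09 for Rpa3, with a median of 0.46 beside 0.01 over all tested genes. The sign was positive for 38 of the 41 (92.7%, against 50.5% of all). All 3 Srsf1-cKO libraries lay above all 3 WT libraries for 14 genes (34.1%, against 19.9% of all), and below them for Cdt1 alone (against 19.5% of all). These are bulk libraries, so a larger share of cells in S phase and more RNA of these genes per cell cannot be told apart.

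**Figure D1:**
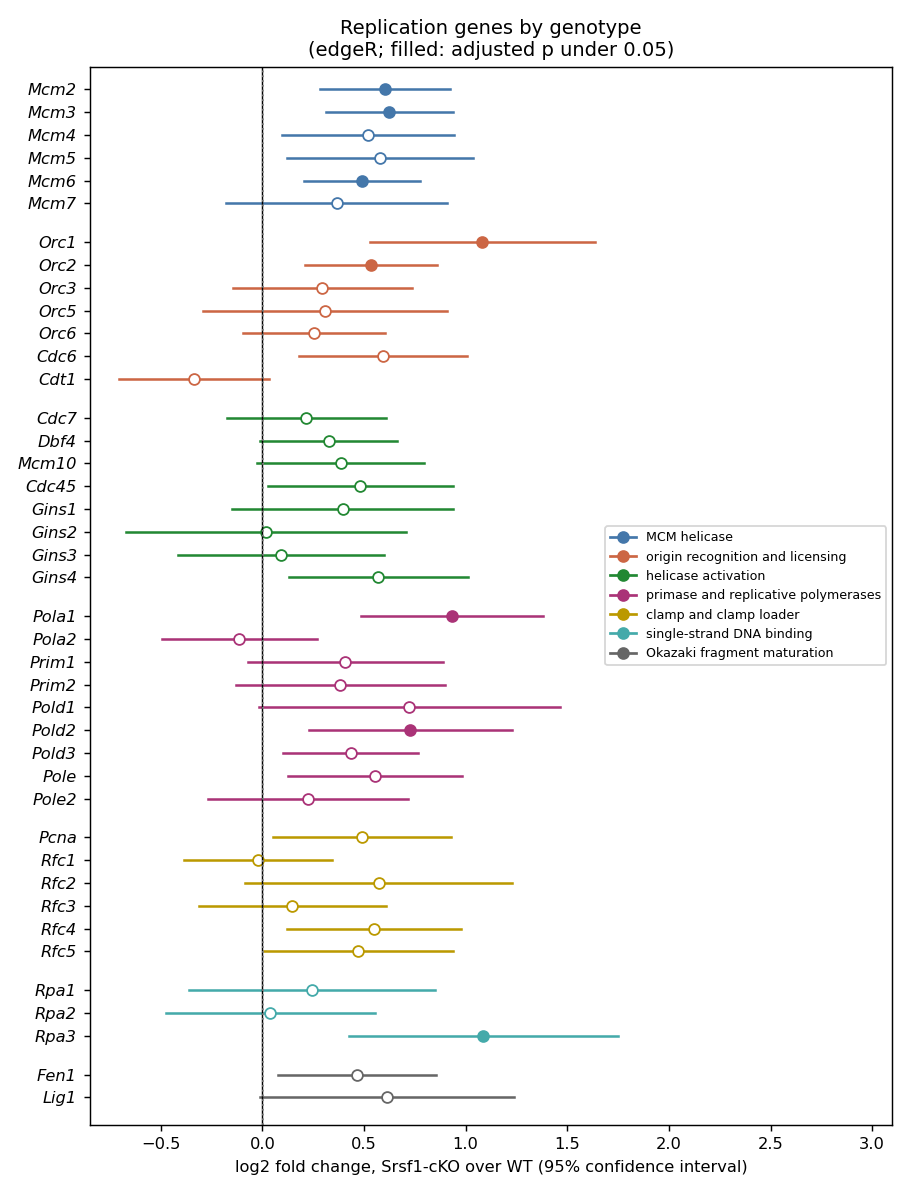
Log2 fold change of each of the 41 replication genes, Srsf1-cKO over WT, with its 95% confidence interval, ordered and coloured by role. Filled points are the 8 genes with an edgeR adjusted p under 0.05, and 38 of the 41 points lie above 0.

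The 6 libraries differed in how far the set was raised. The summed level of the 41 genes was 2039, 2232 and 2101 CPM in WT replicates 1 to 3, and 2442, 2939 and 3379 CPM in Srsf1-cKO replicates 1 to 3. The groups did not overlap, but the Srsf1-cKO libraries were spread more widely than the WT libraries. Srsf1-cKO replicate 3 was the highest of the 6 libraries for 25 genes, and Srsf1-cKO replicate 1 was the lowest of its group for 34. Srsf1-cKO replicate 1 exceeded every WT library for 16 genes, replicate 2 for 31 and replicate 3 for 33. These libraries lay below every WT library for 6, 2 and 2 genes. The matching counts over all tested genes were not taken. The median coefficient of variation of the 41 genes was 0.136 in WT and 0.188 in Srsf1-cKO, whereas over all tested genes it was 0.161 and 0.136.

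Single libraries decided the calls. Without WT replicate 1, and likewise without Srsf1-cKO replicate 2, 0 of the 41 genes were called by edgeR. In these fits 9 and 14 of the 41 were higher at an unadjusted p under 0.05, against 11.6% and 12.3% of all. The calls over all genes fell with them, to 0.754% and 1.23% higher. The median log2 fold change of the set was 0.38 without WT replicate 1, with 37 of 41 positive. It was 0.46 without Srsf1-cKO replicate 2, with 38 of 41 positive. Without Srsf1-cKO replicate 3, 4 genes were called (Mcm2, Mcm3, Orc2 and Pola1), against 6.53% of all. In that fit 35 of 41 had a positive fold change, and the median was 0.32.

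**Figure D2:**
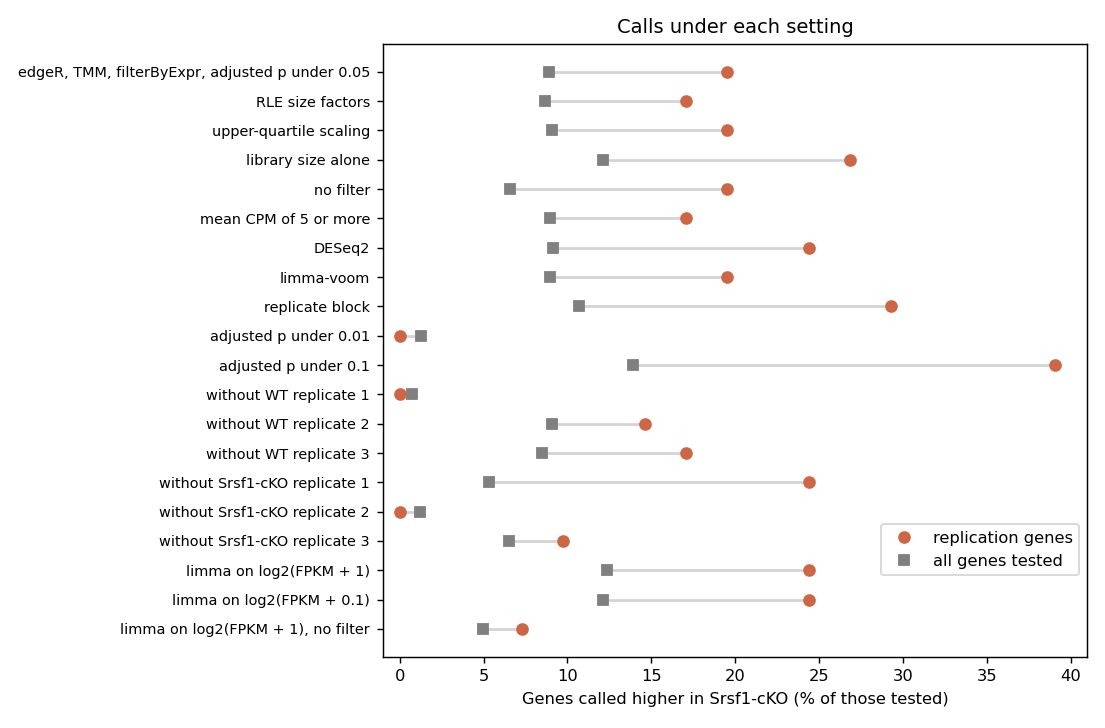
Percent of the 41 replication genes and of all tested genes called higher in Srsf1-cKO, under each setting of the analysis. The share of replication genes is 19.5% as reported and 0 without WT replicate 1, without Srsf1-cKO replicate 2 or at an adjusted p under 0.01.

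**Figure D3:**
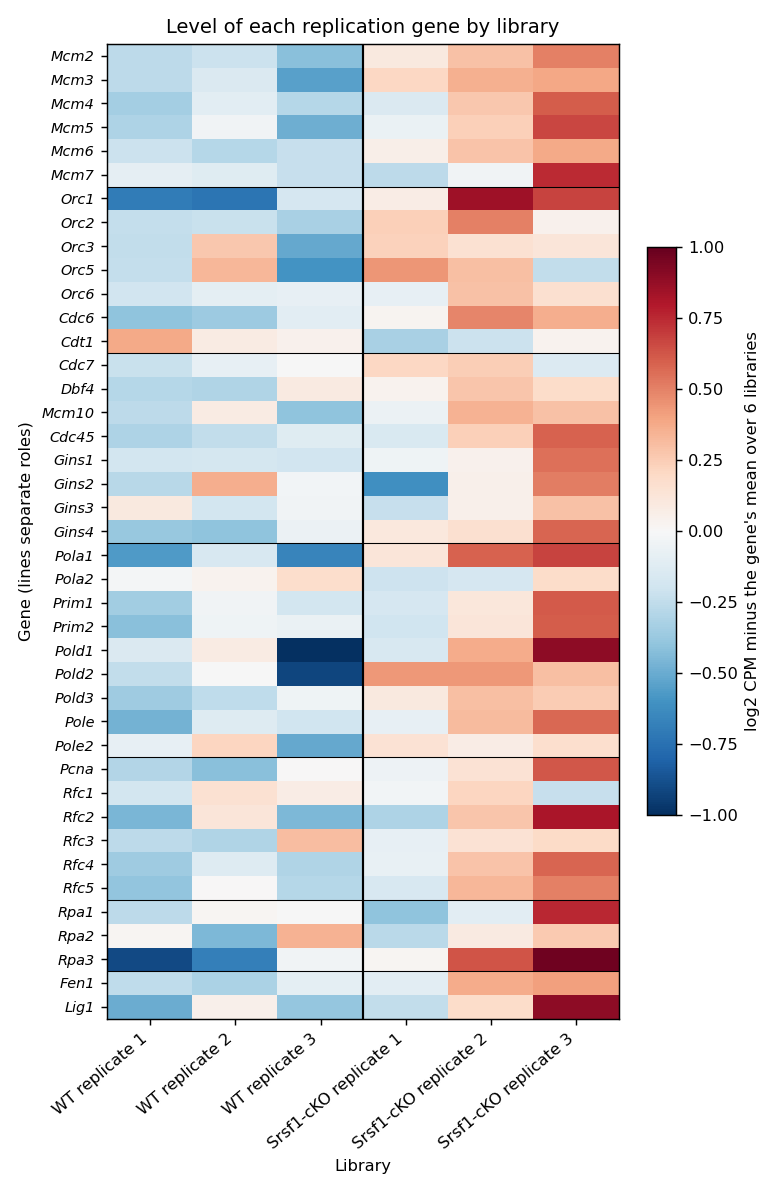
Level of each replication gene in each library as log2 CPM minus that gene's mean over the 6 libraries, with genes in rows by role and libraries in columns. Srsf1-cKO replicate 3 is the highest column for 25 genes, and Srsf1-cKO replicate 1 is nearest to the WT columns.

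Promoters of the set were compared with those of other genes for E2F sites. RefSeq promoters (GRCm38.p6, 250 bases before to 50 after each annotated start) were matched for 34 of the 41 genes, all but Gins1, Gins2, Gins4, Mcm4, Pole, Prim2 and Rfc2. The letters searched on both strands were TTTCCCGC, TTTCGCGC, TTTGCCGC and TTTGGCGC. At least 1 of them was present in 15 of the 34 promoters (44.1%), against 704 of 27025 promoters of all genes (2.605%) and 408 of 8024 promoters of tested genes (5.08%). The 15 were Mcm3, Mcm5, Mcm6, Mcm7, Orc1, Orc3, Cdc6, Cdt1, Gins3, Pola1, Pold1, Pold3, Pole2, Rfc3 and Lig1. A match was present in 4 of the 8 genes that rose and in 11 of the other 26 promoters, a difference that was not tested. Over all tested genes, 5.05% of those that rose and 4.02% of those that fell held a match. A match is a run of letters, not a shown binding site.

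The promoters of the 4 genes that rose and held a match are shown to place these letters against the start of each gene, in lower case with the matches in capitals. For Orc1 (chr4:108579304-108579453, plus strand), Pola1 (chrX:93632156-93632305, minus strand) and Mcm6 (chr1:128359706-128359855, minus strand) these are the 150 bases before the start, from RefSeq on GRCm38.p6. Mcm3 (chr1:20820267-20820293, minus strand) has its matches after the start, and 27 bases from positions 20 to 46 are shown. Positions are counted from the annotated start, with negative numbers before it.
Orc1: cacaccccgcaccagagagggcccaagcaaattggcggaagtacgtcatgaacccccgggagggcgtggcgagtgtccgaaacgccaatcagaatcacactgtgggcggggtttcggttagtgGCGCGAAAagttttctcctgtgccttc
Pola1: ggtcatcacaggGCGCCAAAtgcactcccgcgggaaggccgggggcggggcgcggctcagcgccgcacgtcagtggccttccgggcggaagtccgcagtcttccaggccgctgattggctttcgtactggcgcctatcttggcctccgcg
Mcm6: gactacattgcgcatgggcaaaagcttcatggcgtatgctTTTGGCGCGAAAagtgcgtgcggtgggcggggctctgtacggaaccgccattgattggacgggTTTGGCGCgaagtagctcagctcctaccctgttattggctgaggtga
Mcm3: GCGGGAAAacttgggaagtTTTGGCGC
Orc1 and Pola1 each hold 1 match, at positions -27 and -138, and both read in the reverse direction. Mcm6 holds 3, of which the first pair begins at -110 and -106 on opposite strands and shares 4 bases. That run reads TTTGGCGC on 1 strand and TTTCGCGC on the other. Mcm5, a helicase gene with an edgeR adjusted p of 0.076, has a similar overlapping pair from -153 to -142 (chr8:75109356-75109367, plus strand), and was picked for display after its matches were seen.
Mcm6 pair: TTTGGCGCGAAA
Mcm5 pair: TTTCGCGCCAAA

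Another promoter word, the CCAAT box bound by NF-Y, was present in 20 of the 34 promoters (58.8%), against 41.1% of all promoters and 43.2% of those of tested genes. All 8 genes that rose held it, and 12 of the 26 that did not. Over all tested genes, 44.9% of those that rose and 40.6% of those that fell held it. The TTTGAA word of the cell cycle homology region, known from genes of G2 and mitosis, was present in 7 of 34 (20.6%), against 20.2% of all promoters and 13.8% of those of tested genes. Over all tested genes, 18.8% of those that rose and 13.2% of those that fell held it. Both words are short, and both were searched on both strands in the same window.

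The MCM2 to MCM7 subunits form the ring that unwinds DNA ahead of the fork, and all 6 genes had a positive fold change, with a median of 0.55. Mcm3 was at 144, 156 and 119 CPM in WT replicates 1 to 3, and at 200.003, 221 and 226 CPM in Srsf1-cKO replicates 1 to 3. The lowest Srsf1-cKO library stood above the highest WT library. Mcm3 rose by a log2 fold change of 0.62 ± 0.14 (SE; edgeR adjusted p = 0.0192). Mcm2 was at 86.6, 89.9 and 77.9 CPM in WT and at 112, 127 and 148 CPM in Srsf1-cKO. Its groups did not overlap either, and Srsf1-cKO replicate 3 was the highest. Mcm2 rose by 0.60 ± 0.14 (edgeR adjusted p = 0.0231).

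Mcm6, whose promoter with 3 matches is printed above, was the most abundant helicase gene. It was at 257, 244 and 254 CPM in WT, which is a narrow range, and at 310, 363 and 388 CPM in Srsf1-cKO, without overlap. Mcm6 rose by 0.49 ± 0.13 (edgeR adjusted p = 0.0306). None of the 3 helicase genes was called once WT replicate 1 or Srsf1-cKO replicate 2 was left out, with adjusted p up to 0.096 for Mcm2, 0.087 for Mcm3 and 0.125 for Mcm6. Mcm6 also lost its call without WT replicate 2 or Srsf1-cKO replicate 3. The other 3 subunits were not called, with log2 fold changes of 0.52 for Mcm4, 0.58 for Mcm5 and 0.36 for Mcm7. Mcm7 was at 66.3 and 77.5 CPM in Srsf1-cKO replicates 1 and 2, beside 67.8 to 74.6 CPM in WT, and at 133 CPM in replicate 3. Its log2 fold change was 0.0021 without that library.

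The origin recognition complex marks where helicases are loaded, and its largest subunit gene, Orc1, had the second highest fold change of the set. Orc1 was at 14.0, 13.8 and 20.3 CPM in WT and at 24.1, 41.2 and 36.5 CPM in Srsf1-cKO. WT replicate 3 was the highest WT library and still lay below Srsf1-cKO replicate 1. Orc1 rose by 1.08 ± 0.24, or 2.12-fold (edgeR adjusted p = 0.0203), and lost its call without WT replicate 1, Srsf1-cKO replicate 2 or Srsf1-cKO replicate 3 (adjusted p up to 0.098).

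Orc2, the most abundant of the licensing genes per length, was at 107, 108 and 100.4 CPM in WT and at 148, 179 and 129 CPM in Srsf1-cKO. The groups did not overlap, and here Srsf1-cKO replicate 3 was the lowest of its group. Orc2 rose by 0.53 ± 0.14 (edgeR adjusted p = 0.0356), a call lost without any 1 of the libraries but Srsf1-cKO replicate 3 (adjusted p up to 0.158). Orc3, Orc5 and Orc6 did not pass, with log2 fold changes of 0.30, 0.31 and 0.25.

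CDC6 and CDT1 act together with the complex, and their mRNAs differed in sign. Cdc6 was at 15.6, 16.0 and 19.1 CPM in WT and at 21.1, 28.9 and 26.5 CPM in Srsf1-cKO. It was higher in every Srsf1-cKO library, but its log2 fold change of 0.59 ± 0.18 missed the threshold (edgeR adjusted p = 0.053). Cdt1 was at 55.3, 45.1 and 43.8 CPM in WT and at 33.9, 36.6 and 43.6 CPM in Srsf1-cKO. It was lower in every Srsf1-cKO library, although Srsf1-cKO replicate 3 and WT replicate 3 nearly touched, and its value of -0.34 ± 0.16 did not pass (edgeR adjusted p = 0.177). Cdt1 is the only replication gene whose groups separated in that direction, and its promoter holds an E2F match as Cdc6's does.

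**Figure D4:**
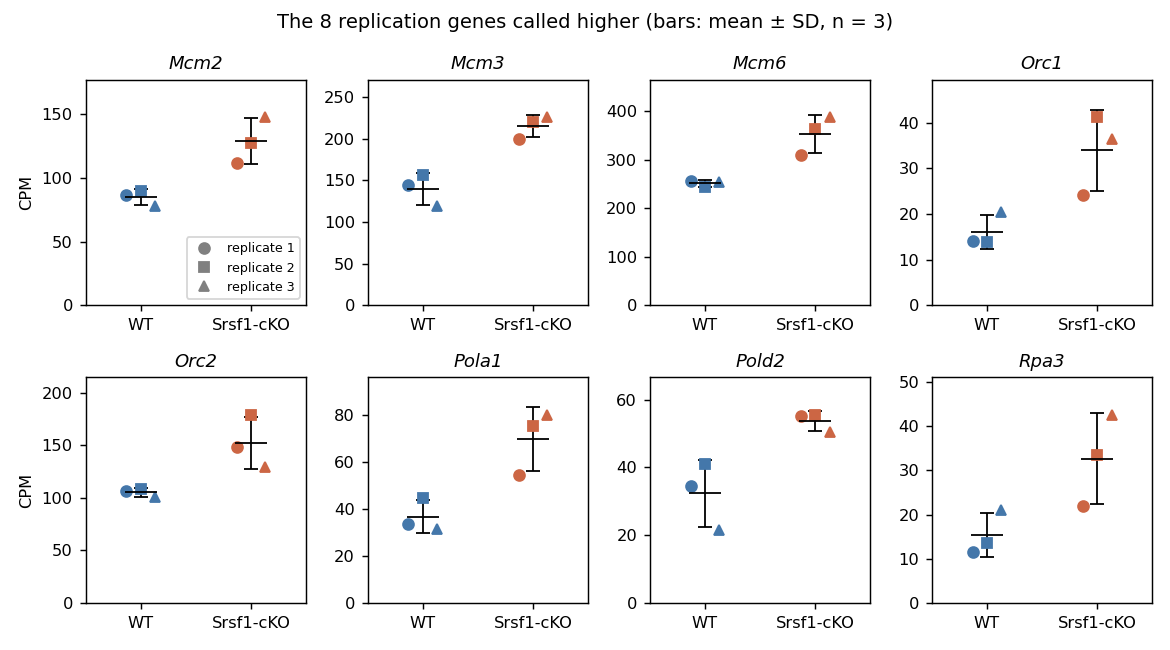
CPM of the 8 replication genes that rose, one panel per gene, with each library as a point shaped by its replicate number and bars for the mean ± SD (n = 3). In each panel the 3 Srsf1-cKO points lie above the 3 WT points.

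Helicase activation held no called gene: none of its 8 genes rose and none fell, with a median log2 fold change of 0.35 and a positive sign in all 8. Dbf4, the activating subunit of the CDC7 kinase and the most abundant gene here, was at 82.6, 81.6 and 107 CPM in WT and at 103, 122 and 115 CPM in Srsf1-cKO. WT replicate 3 exceeded Srsf1-cKO replicate 1, so the groups overlapped, and the value of 0.33 ± 0.15 did not pass (edgeR adjusted p = 0.156). Its kinase partner Cdc7 was at 0.22 ± 0.17.

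The GINS complex has 4 subunits, and the values of their mRNAs ran from 0.02 to 0.57. Gins4 was at 15.5, 15.2 and 19.3 CPM in WT and at 21.6, 22.4 and 30.0 CPM in Srsf1-cKO. All Srsf1-cKO libraries were higher, with a log2 fold change of 0.57 ± 0.19 (edgeR adjusted p = 0.0717). Gins1 was at 0.40, and Gins2 and Gins3 were near 0, at 0.02 and 0.09, with intervals from -0.67 to 0.71 and from -0.42 to 0.60. Whether these 4 differ from one another was not tested. Cdc45 and Mcm10, which join the helicase as it is activated, were at 0.48 and 0.38 and did not pass.

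Of the 9 genes of primase and the polymerases, 4 had every Srsf1-cKO library above every WT library and 2 rose. The shares over all tested genes were 19.9% and 8.9%. Pola1, the catalytic subunit of the polymerase alpha that extends primers, was at 33.7, 44.6 and 31.5 CPM in WT and at 54.3, 75.3 and 79.9 CPM in Srsf1-cKO. Even its lowest Srsf1-cKO library was above WT replicate 2, the highest of its group. Pola1 rose by 0.93 ± 0.20, or 1.91-fold, with the smallest adjusted p of the set (edgeR, 0.0168), and lost its call without WT replicate 1 or Srsf1-cKO replicate 2 (adjusted p up to 0.090). The accessory subunit Pola2 did not follow, at -0.11 ± 0.17, and the primase genes Prim1 and Prim2 were at 0.41 and 0.38 without passing.

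Pold2, an accessory subunit of polymerase delta, was at 34.6, 40.97 and 21.6 CPM in WT and at 55.3, 55.5 and 50.4 CPM in Srsf1-cKO. The Srsf1-cKO libraries lay close together and the WT libraries did not. Pold2 rose by 0.73 ± 0.22 (edgeR adjusted p = 0.0497), a call at the edge of the threshold that was kept only when WT replicate 2 was the library left out (adjusted p up to 0.149 otherwise). Pold3, another subunit of polymerase delta, was at 35.5, 38.2 and 44.1 CPM in WT and at 48.7, 56.1 and 54.4 CPM in Srsf1-cKO. The groups did not overlap, and 0.44 ± 0.15 missed the threshold (edgeR adjusted p = 0.0696). The catalytic subunits Pold1 and Pole were at 0.72 and 0.55, and Pole2 at 0.23, and these 3 did not pass.

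The PCNA clamp holds polymerases on DNA, and Pcna was the most abundant gene of the set when levels are scaled by transcript length. Pcna was at 142, 130 and 173 CPM in WT and at 167, 191 and 266 CPM in Srsf1-cKO. WT replicate 3 lay above Srsf1-cKO replicate 1, so the groups overlapped, and 0.49 ± 0.19 did not pass (edgeR adjusted p = 0.107). The 5 genes of replication factor C, which loads the clamp, did not pass either. Rfc2, Rfc4 and Rfc5 were at 0.57, 0.55 and 0.47, whereas Rfc3 was at 0.15 and the large subunit Rfc1 at -0.02, with an interval from -0.39 to 0.34.

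Replication protein A coats single-stranded DNA as a complex of RPA1, RPA2 and RPA3, and only the gene of its smallest subunit passed. Rpa3 was at 11.6, 13.5 and 21.1 CPM in WT and at 21.9, 33.5 and 42.5 CPM in Srsf1-cKO. WT replicate 3 and Srsf1-cKO replicate 1 nearly met, and the other libraries were well apart. Rpa3 rose by 1.09 ± 0.29, or 2.12-fold (edgeR adjusted p = 0.0354), and lost its call without WT replicate 1 or 2 or without Srsf1-cKO replicate 2 or 3 (adjusted p up to 0.143). Rpa1 and Rpa2 were at 0.25 ± 0.27 and 0.04 ± 0.23, and the difference between the subunits was not tested. Rpa1 rested on Srsf1-cKO replicate 3, at 177 CPM beside 79.3 and 97.9 in the others, and was at -0.17 without it.

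Lig1 and Fen1 encode the ligase and the flap nuclease that finish Okazaki fragments. Lig1 was at 53.7, 78.2 and 57.7 CPM in WT and at 63.9, 85.9 and 140 CPM in Srsf1-cKO. The groups overlapped, and 1 library, Srsf1-cKO replicate 3, was far above the rest. Lig1 was at 0.62 ± 0.28 (edgeR adjusted p = 0.149) and Fen1 at 0.46 ± 0.17 (edgeR adjusted p = 0.0908).

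Levels between genes were compared by FPKM, which scales reads by transcript length and depth. Pcna stood first with 164 ± 20.0 FPKM in WT and 246 ± 56.9 in Srsf1-cKO, and Mcm6 second with 62.9 ± 1.31 and 95.03 ± 11.4. Both places were clear of the spread between WT libraries. Below them Mcm3 at 34.8 ± 5.09, Mcm4 at 27.8 ± 3.16 and Dbf4 at 27.3 ± 4.54 FPKM in WT lay within 1 another's spread. Rpa3 moved from 24.4 ± 8.30 FPKM in WT to 54.4 ± 17.0 in Srsf1-cKO. Gins3 was the lowest, at 2.396 ± 0.144 and 2.74 ± 0.558 FPKM, and the mean over all libraries of the first gene was 79.8 times that of the last.

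Tested on log2(FPKM + 1) with limma, 10 of the 41 genes were higher in Srsf1-cKO, against 12.3% of all genes tested that way, and 0 were lower, against 6.39%. The 10 were the 8 genes above with Gins4 (difference 0.62, limma adjusted p = 0.0382) and Pold3 (0.49, limma adjusted p = 0.0455). On this scale all genes shifted upward, by a median of 0.10, and the set's median was 0.51.

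**Figure D5:**
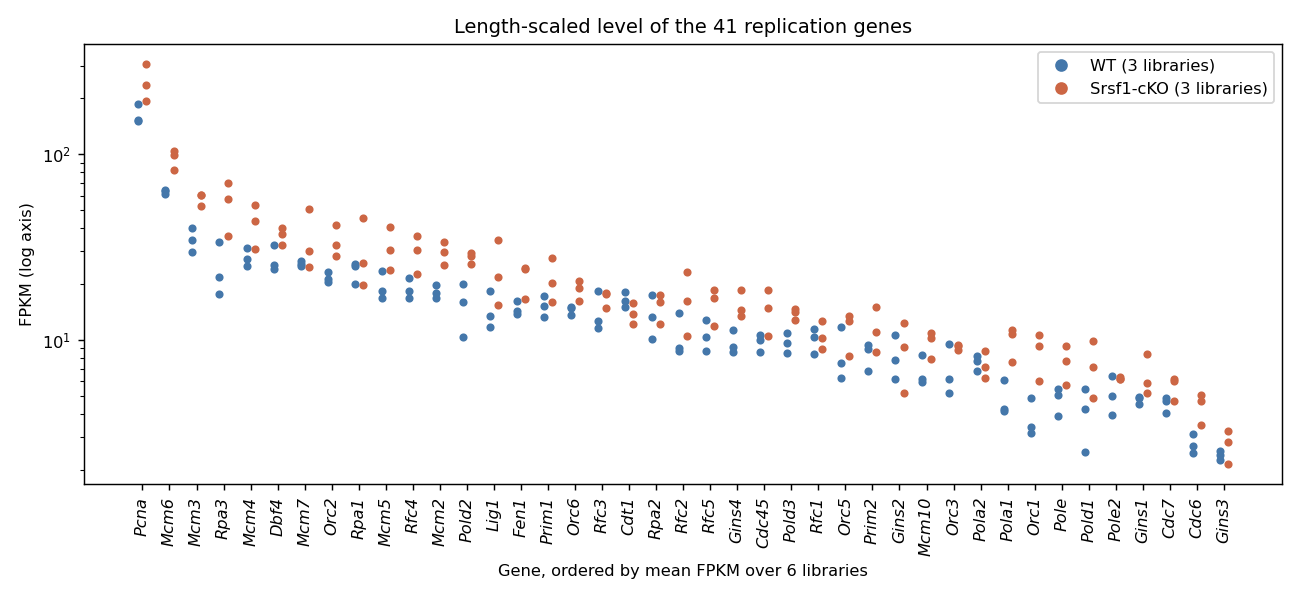
FPKM of each replication gene in each library on a log axis, with genes ordered by their mean over the 6 libraries. Pcna lies highest and Gins3 lowest, and the spread between genes is far wider than that between genotypes.

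Of 11 further subunits of the same complexes, 1 rose and 1 fell, with a median of 0.35. For this and the following lists the background is the 8.9% of all tested genes that rose, the 9.5% that fell, and a median of 0.01. Pold4, the smallest subunit of polymerase delta, was at 33.7, 55.5 and 20.2 CPM in WT and at 14.3, 9.26 and 10.3 CPM in Srsf1-cKO. Every Srsf1-cKO library was below every WT library, opposite to Pold2. Pold4 fell by 1.69 ± 0.35 on the log2 scale (edgeR adjusted p = 0.0148). Chtf8, of an alternative clamp loader, rose by 0.61 ± 0.16 (edgeR adjusted p = 0.0324). The most abundant of these genes, Mcmbp, which binds MCM proteins, was at 0.21 and did not pass. Neither call was kept when WT replicate 1 or Srsf1-cKO replicate 2 was left out (adjusted p up to 0.071 for Pold4 and 0.128 for Chtf8).

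A list of origin firing and fork factors held 7 risen genes of 26, with a median of 0.39. It held 0 fallen genes (0 at an unadjusted p under 0.05, and 0 with DESeq2 and limma-voom). The list also includes genes of other roles, such as Fbxo5, Slbp and Ssbp1. The largest value was that of 2810417H13Rik, which encodes the PCNA-associated factor PAF15. It was at 28.9, 56.7 and 42.2 CPM in WT and at 92.4, 144 and 247 CPM in Srsf1-cKO, the groups well apart, and rose by 1.92 ± 0.36 (edgeR adjusted p = 0.0115). Tipin and Timeless, partners in the fork protection complex, rose by 0.86 and 0.69, Clspn by 0.74, Wdhd1, which links polymerase alpha to the helicase, by 0.84, Fbxo5 by 1.09 and Uhrf1 by 0.70. Top2a, the most abundant of the list, was at 0.37 ± 0.24 and did not pass. Of the 26, 0 were called higher when WT replicate 1 was left out and 1 when Srsf1-cKO replicate 2 was.

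Enzymes of deoxynucleotide supply had a median of 0.87, the highest of the lists of replication and cell cycle genes, with 6 of 11 genes up and 1 down. Rrm2, the regulated subunit of ribonucleotide reductase, was at 26.5, 29.4 and 34.0 CPM in WT and at 62.0, 91.2 and 105 CPM in Srsf1-cKO. The groups were far apart and Rrm2 rose by 1.52 ± 0.21 (edgeR adjusted p = 0.00648). Tyms, which makes thymidylate, rose by 1.86 ± 0.27 (edgeR adjusted p = 0.00667), and Rrm2 and Tyms kept their calls whichever library was left out. Dut, Rrm1, Shmt1 and Tk1 rose by 1.16, 0.96, 0.87 and 1.23. Samhd1, which degrades deoxynucleotides and was the most abundant of these genes, fell by 0.59 ± 0.14 (edgeR adjusted p = 0.0226), from 549 ± 67.7 to 364 ± 37.7 CPM (SD, n = 3). Leaving out WT replicate 1, or Srsf1-cKO replicate 2, left 2 of the 11 called higher and 0 lower.

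Control of the step from G1 to S moved in both directions, with 6 of 26 genes up, 3 down and a median of 0.16. Ccna2, the cyclin of S phase and G2, rose by 1.58 ± 0.29, Ccne2 by 0.83, Cdk4 by 0.70, Skp2 by 0.76, Tfdp1, the usual dimer partner of E2F, by 0.61, and the repressor E2f8 by 0.96. The pocket protein genes Rbl2 and Rb1, which restrain E2F, fell by 0.66 and 0.50 on the log2 scale. Tfdp2, the other dimer partner, fell by 1.68 ± 0.44 (edgeR adjusted p = 0.0313), but its value was -0.94 without WT replicate 3, which at 103 CPM lay far above the other WT libraries at 38.1 and 29.1. Ccnd2, the most abundant gene of the list, was at -0.04, a sign that turned under several settings. Without WT replicate 1, and likewise without Srsf1-cKO replicate 2, 0 of the 26 were called in either direction.

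The response to replication stress included 6 risen genes of 20 and 0 fallen (0 at an unadjusted p under 0.05, and 0 with DESeq2 and limma-voom), with a median of 0.58. Those that rose included Hus1 of the checkpoint clamp (0.81), Usp1 (0.63), the nuclease Exo1 (0.91), Rad18 (0.76) and the kinase Wee1 (0.68). Genes of G2 and mitosis rose in 8 of 18, all 18 had a positive sign, and the median was 0.62. Cdk1, the mitotic kinase, rose by 1.16 ± 0.19 (edgeR adjusted p = 0.00862), Ccnb2 by 1.37, Ccnb1 by 1.11, Birc5 by 0.94, Plk1 by 0.81, Aurka by 0.78, Aurkb by 0.67 and Bub1b by 0.57. No gene of G2 and mitosis fell (0 at an unadjusted p under 0.05, and 0 with DESeq2 and limma-voom). Mki67, the proliferation marker, was at 0.58 and did not pass (edgeR adjusted p = 0.0897). Without WT replicate 1, 0 genes of either list were called higher, and without Srsf1-cKO replicate 2, 0 of the stress list and 1 of the mitotic list were.

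Several replication genes have a neighbour that starts close by on the opposite strand. A gene start within 1000 bases, facing away, was found for 12 of the 41 genes, and 9 of these neighbours were tested: 2 rose, 2 fell, and their median log2 fold change was -0.34. Prpf38a rose by 0.57 ± 0.14 beside Orc1, so that both members of that pair were higher in Srsf1-cKO. Slc25a40 rose by 1.15 ± 0.21 beside Dbf4, which did not pass. Ap4m1 fell by 1.30 ± 0.26 beside Mcm7, which did not pass, and Umad1, listed as Gm16039, fell by 0.88 ± 0.24 beside Rpa3, which rose. The other 5 neighbours tested did not pass, with values of -0.34 for Ufd1l beside Cdc45, 0.15 for Tmem258 beside Fen1, -1.19 for 6330408A02Rik beside Lig1, 0.39 for Rars2 beside Orc3 and -0.38 for Smyd4 beside Rpa1. All 4 of the calls were lost without WT replicate 1 or without Srsf1-cKO replicate 2 (adjusted p up to 0.114 for Prpf38a, 0.062 for Slc25a40, 0.071 for Ap4m1 and 0.133 for Gm16039).

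Exons of 11 replication genes overlap those of another gene of the count table. The sources used here do not say whether reads were counted by strand, so the counts of these genes are uncertain. Among genes that rose this concerns Orc2, which overlaps Nif3l1 on the opposite strand, a gene that itself rose by 0.69. Mcm7 overlaps Ap4m1 and Cops6, of which Cops6 rose by 0.65, and Gins2 overlaps Gse1, which fell by 0.85 on the log2 scale. Orc5 overlaps a pseudogene on its own strand, Gm15421, which fell by 1.38. The remaining overlaps, of Cdc45, Fen1, Lig1, Orc6, Rfc2, Rfc4 and Rfc5, were with genes that did not pass.

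Markers of other cells in the cultures were measured beside these results. B cell markers summed to 4.75, 8.32 and 1.32 CPM in WT and to 15.3, 25.4 and 9.11 CPM in Srsf1-cKO, with 1 of 5 tested genes up (Cd79a, 2.08). Ms4a1, the most abundant of them, was at 2.48 and did not pass (edgeR adjusted p = 0.0545). The B cell sum was higher in every Srsf1-cKO library than in any WT library. Whether it is related to the level of the replication genes was not tested. Myeloid and antigen-presenting markers summed to 56.2 to 82.5 CPM in WT and to 117 to 131 CPM in Srsf1-cKO, with 3 of 5 tested genes up (H2-Aa, 2.47; Cd74, 0.86; Lyz2, 2.98). The other tested genes did not pass, and they differed in sign: Itgam was at 1.33, and H2-Ab1, the partner chain of H2-Aa, at -0.29 (15.01 ± 9.93 CPM in WT and 12.3 ± 4.23 in Srsf1-cKO; SD, n = 3). Of the 10 markers of this list only 5 passed the filter on low counts, and 1 of the others, S100a9, was at 0 in all libraries. Lyz2 was at 14.0 CPM in Srsf1-cKO replicate 3 and at 4.80 CPM or less in every other library, and its value was 4.72 without WT replicate 1.

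Markers of CD8 and NK cells summed to 27.4 to 43.4 CPM in WT and 25.4 to 43.0 CPM in Srsf1-cKO, with 1 of 3 tested genes up (Klrd1, 3.19, from 0.854 ± 0.406 to 7.92 ± 5.07 CPM) and Ncr1 at 0 throughout. Cd8b1, the most abundant of them, did not pass and lay in the other direction, at -0.60 (edgeR adjusted p = 0.115), with 30.4 ± 10.16 CPM in WT and 20.0 ± 3.14 CPM in Srsf1-cKO and every Srsf1-cKO library below every WT library. Prf1 was at 1.84 and did not pass. Erythroid markers reached at most 0.132 and 0.188 CPM in the groups, with 5 of 6 at 0. Of the T cell identity genes, 7 of 10 had a row (Trac, Trbc1 and Trbc2 are not used here). Their sum was 1832 to 2308 CPM in WT and 1829 to 2654 in Srsf1-cKO, and 1 of 7 rose (Cd3g, 0.72). Cd2 was at 0.49 and Cd4 at -0.25, and neither passed. T cell genes were thus abundant in all 6 libraries, as labelled. None of these 6 calls was kept without WT replicate 1, and Klrd1 alone was kept without Srsf1-cKO replicate 2. The part of other cells in the replication results was not tested.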

How the data were processed

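RNA of 3 WT and 3 Srsf1-cKO mice went into stranded mRNA libraries and single-end sequencing, per the labels' design text. The authors deposited whole-number read counts per gene, and 27 rows bear dates in place of symbols. A second deposited table, named as counts, held FPKM values, a unit read from the values. An alignment report deposited by the authors gave other metrics per library. The submitters' processing notes name STAR 2.4.2a and the mm9 build, while the annotation, counting program and strand setting were not given in the sources used here. All per-sample columns were used (0 left out).

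Counts were tested with edgeR 4.0.16 (R 4.3.3; quasi-likelihood, two-sided, filterByExpr, TMM, genotype as the only term) over 10454 genes, with Benjamini-Hochberg adjustment and a threshold of 0.05. CPM uses TMM library sizes. FPKM was tested with limma 3.58.1 on log2(FPKM + 1) for genes reaching 1 FPKM in 3 or more libraries, a scale that understates changes of low genes. Replicate libraries of a group differed by more than sampling noise. The edgeR, limma-voom and FPKM fits were tried on simulated counts, and DESeq2 and the replicate block were not. For the FPKM fit these counts were scaled by library size only, without transcript length. Motifs came from RefSeq promoters, and neighbours from starts within 1000 bases, both on GRCm38.p6, and no coordinates of the authors' build were used. Exon overlaps came from the GENCODE M21 basic annotation.

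Per-library values are given for called genes, the most abundant gene of each role by mean FPKM, and the 3 uncalled genes with the smallest p. Those of Cdt1, Mcm7 and Rpa1 are given outside this rule. For other lists, up to 6 called genes with the smallest adjusted p and the most abundant are named, and further called genes were named after their values were seen. The values of 1 gene that this rule names are not reported here. The members and lists were chosen with earlier results of these data known. Alternatives were other scalings, filters, thresholds, DESeq2 1.42.0, limma-voom, a replicate block, leaving out each library, FPKM with other settings, and other distances for promoters and neighbours.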

Additional observations from a re-analysis of the deposited data

How the results depend on the processing

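The number of replication genes called higher was 7 to 12 under the other scalings and filters of the counts, DESeq2, limma-voom and the replicate block, against 8 as reported, and 0 were called lower under every setting. Over all genes, 6.60% to 12.1% were called higher under these other settings. The number of replication genes was 0 at an adjusted p under 0.01, 16 under 0.1 and 3 with limma on unfiltered FPKM. The shares of all genes there were 1.27%, 13.9% and 4.98%. Leaving out 1 library gave 0 to 10 replication genes, against 0.754% to 9.08% of all genes. The cause was not tested. Scaling by library size alone gave 11 and put the median of all genes at 0.11.

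Replicate numbers were shared by the groups. Correlations of same-numbered libraries were 0.24, 0.01 and 0.28, and those of differently numbered libraries ran from -0.33 to 0.21. WT replicates 1 and 3 correlated best with the Srsf1-cKO library of their own number, but WT replicate 2 with Srsf1-cKO replicate 1 (0.21). The numbers were not taken as pairs in the main fit, and these values do not settle whether the libraries were paired. With the replicate block, 12 genes were called higher (adding Cdc6, Gins4, Pole and Pcna), and 1118 higher and 1152 lower over all genes, against 930 and 993.

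Signs turned for Srsf1 and for 9 genes that were not called. Over fits that left out 1 library, Srsf1 ranged from -0.0047 (without WT replicate 2) to 0.12, Gins2 from -0.29 to 0.26, Gins3 from -0.047 to 0.21, Rfc1 from -0.14 to 0.081, Rpa1 from -0.17 to 0.46, Rpa2 from -0.15 to 0.23, Ccnd2 from -0.18 to 0.18, Eif4a2 from -0.20 to 0.050, Vps35 from -0.17 to 0.11 and Wsb2 from -0.095 to 0.12. Gins2 was at -0.013 with limma-voom and at -0.027 with the replicate block. By library size alone, Rfc1 was at 0.079, Ccnd2 at 0.067 and Vps35 at 0.057. On log2(FPKM + 1), with and without the filter, Rfc1 was at 0.064, Ccnd2 at 0.0896 and Vps35 at 0.068, and with a pseudocount of 0.1 they were at 0.0698, 0.08996 and 0.0698. With only the 200 bases before the start, 26.5% of promoters of the set held an E2F match, against 44.1%.

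With 3 libraries per group and a Srsf1 mRNA level that did not mark the genotypes, the labels rest on the deposited descriptions. Every replication gene had 46 reads or more in every library, and the lowest counts were those of Gins1, Gins2 and Gins3.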
